A study of Mus musculus with 18 samples.

Results

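The 10 genes described here act in the Wnt pathway and were taken by name: the ligand Wnt5a, the secreted inhibitors Sfrp1, Sfrp2 and Dkk3, the co-receptors Lrp5 and Lrp6, the transducer Ctnnb1 (beta-catenin), the feedback inhibitor Axin2, and the nuclear factors Lef1 and Tcf7. They are 10 of 30452 genes in the deposited table. Of these 10, 8 passed the filter on low values that left 11936 genes for testing, and Sfrp1 and Tcf7 did not. The study grew MC3T3-E1 cells, an established clonal line of mouse pre-osteoblasts, for 5 days on membrane discs of 15 mm at 20000 cells per well, and sequenced their polyadenylated RNA. The membranes were PLLA, a fibre film of the piezoelectric polymer poly-L-lactic acid, PLLA/ZnO, which also holds zinc oxide, and PLLA/ZnO@Col, which also holds collagen. Each membrane was used with ultrasound for 10 min every day (+US) and without it (-US), which gives 6 groups of 3 libraries. All groups share the cell line, the sterilisation of the discs by irradiation and the culture time. Whether the 3 libraries of a group are separate cultures is not in the labels, so each p-value reflects the variation among these libraries alone, which may be technical.

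Wnt ligands are secreted proteins that bind Frizzled receptors together with the co-receptors Lrp5 or Lrp6. In the canonical branch this stops the destruction of beta-catenin by a complex built on Axin, and beta-catenin then acts in the nucleus with factors of the TCF and LEF family on targets that include Axin2 itself. Secreted Frizzled-related proteins and Dickkopf proteins act outside the cell on ligands or co-receptors, while Wnt5a mostly signals through beta-catenin-independent branches, and canonical Wnt signalling is known for promoting bone formation by osteoblasts.

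Promoter sequences are shown for Axin2, Sfrp2 and Lef1, the 3 genes with an edgeR unadjusted p under 0.05 in more than 1 contrast below. Each is the 250 bases before the annotated start, read 5′ to 3′ along the gene, from RefSeq on GRCm38.p6. Capitals mark CTTTG, the core of the TCF and LEF motif, on either strand. The Axin2 window is chr11:108920099-108920348 (+ strand), that of Sfrp2 is chr3:83766071-83766320 (+ strand), and that of the first Lef1 start is chr3:131110047-131110296 (+ strand).
Axin2: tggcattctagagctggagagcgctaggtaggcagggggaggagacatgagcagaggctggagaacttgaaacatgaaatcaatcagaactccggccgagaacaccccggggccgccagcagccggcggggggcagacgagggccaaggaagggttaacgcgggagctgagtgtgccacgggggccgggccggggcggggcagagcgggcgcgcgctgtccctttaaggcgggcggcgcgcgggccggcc
Sfrp2: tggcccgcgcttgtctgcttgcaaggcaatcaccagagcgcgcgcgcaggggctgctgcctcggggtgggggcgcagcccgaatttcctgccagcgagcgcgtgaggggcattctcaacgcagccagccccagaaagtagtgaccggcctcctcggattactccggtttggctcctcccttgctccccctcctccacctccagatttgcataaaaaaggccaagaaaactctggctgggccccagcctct
Lef1: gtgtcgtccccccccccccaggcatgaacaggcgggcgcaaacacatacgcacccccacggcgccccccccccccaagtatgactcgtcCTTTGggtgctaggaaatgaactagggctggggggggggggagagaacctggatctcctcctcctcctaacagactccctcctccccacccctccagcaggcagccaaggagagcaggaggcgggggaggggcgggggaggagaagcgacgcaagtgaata
The RefSeq table matched 5 of the 10 genes, with 10 starts in all: 1 for Sfrp2, 1 for Axin2, 2 for Ctnnb1, 2 for Tcf7 and 4 for Lef1. The motif forms CTTTGAA and CTTTGAT, the only longer forms searched, were in 0 of these 10 windows on either strand. They were in 7.48% of all 32851 windows of that length in the table. The core CTTTG, which both of these forms contain, was in 4 of the 10 windows, against 48.6% of all windows. All 4 were Lef1 windows, of which the first 2 overlap, and in the printed one the core lay 157 to 161 bases before the start. A match describes letters in this window and is not evidence of binding. A lack of matches covers only the forms searched and this window, and is not evidence that binding is absent.

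Libraries differed in ways that touch these genes. Total counts ran from 48307580 to 78039543 per library. In 3 libraries on PLLA/ZnO@Col, replicates 1 and 3 without ultrasound and replicate 1 with it, reads of the Y-linked genes Ddx3y, Eif2s3y, Kdm5d and Uty summed to 1.68 to 3.12 CPM (counts scaled to library size), and they are called the libraries low in Y-linked reads below. In 4 further libraries, all with ultrasound (PLLA replicate 3, PLLA/ZnO replicate 3 and PLLA/ZnO@Col replicates 2 and 3), they summed to 19.2 to 46.9 CPM, and in the other 11 to 81.7 to 154 CPM. The 3 low libraries also had the mesenchymal surface gene Thy1 at 0.0709 to 0.128 FPKM, against 2.55 to 5.79 in the other 15 (FPKM scales a gene's fragments by its transcript length and by the depth of the library). Every group on PLLA/ZnO@Col therefore mixes libraries of different kinds. Fold changes printed for the 10 genes on that membrane are given with and without the 3 low libraries. Those of other named genes are given from all libraries only. The share of counts from the mitochondrial genome was under 2% in the 4 ultrasound libraries and in PLLA/ZnO@Col -US replicate 3 (1.57 to 1.87%), against 2.16 to 4.54% elsewhere. Of 10 osteoblast genes, Runx2 (6.22 to 9.54 FPKM), Col1a1 (500.0 to 1160 FPKM), Col1a2 (266 to 747 FPKM), Spp1 (637 to 3610 FPKM) and Sparc (345 to 730 FPKM) were present in all libraries. The others stayed below 1 FPKM: Alpl (at most 0.178 FPKM), Bglap (at most 0.626 FPKM), Ibsp (at most 0.0286 FPKM), Sp7 (at most 0.746 FPKM) and Pth1r (at most 0.678 FPKM). Of 7 macrophage and osteoclast markers, Ptprc (at most 0.0935 FPKM), Adgre1 (at most 0.0813 FPKM) and Acp5 (at most 0.114 FPKM) were near 0, while 4 had a median above 1 FPKM: Lyz2 (18.5), Ctsk (7.01), Cd68 (4.58) and Csf1r (1.18). Lyz2 ran from 5.0 to 26.8 FPKM over the libraries, Ctsk from 4.89 to 16.7, Cd68 from 0.381 to 5.97 and Csf1r from 0.053 to 1.68. The sum of all 7 was at 35.7 to 40.9 FPKM in the 3 low libraries and 13.4 to 34.2 FPKM in the others. This sum does not describe each marker, and the part of these markers in the results was not tested. In bulk RNA, fewer cells of a type and less RNA per cell cannot be told apart.

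Of the 10 genes, the transducer beta-catenin and the secreted protein Dkk3 were the most abundant. Levels in FPKM are scaled to transcript length and so can be set side by side between genes. Ctnnb1 had the highest level of the 10 genes, at 59.0 to 103 FPKM, followed by Dkk3 at 51.6 to 81.2 FPKM. Lrp5, at 4.02 to 18.6 FPKM, and Lrp6, at 2.74 to 11.2 FPKM, overlapped each other, and Wnt5a lay at 1.72 to 5.17 FPKM. Sfrp2 (0.137 to 3.06 FPKM), Axin2 (0.5 to 1.93 FPKM) and Lef1 (0.539 to 2.21 FPKM) were low and overlapped, Tcf7 was at 0.181 to 0.571 FPKM, and Sfrp1 was at 0 to 0.116 FPKM.

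**Figure D1:**
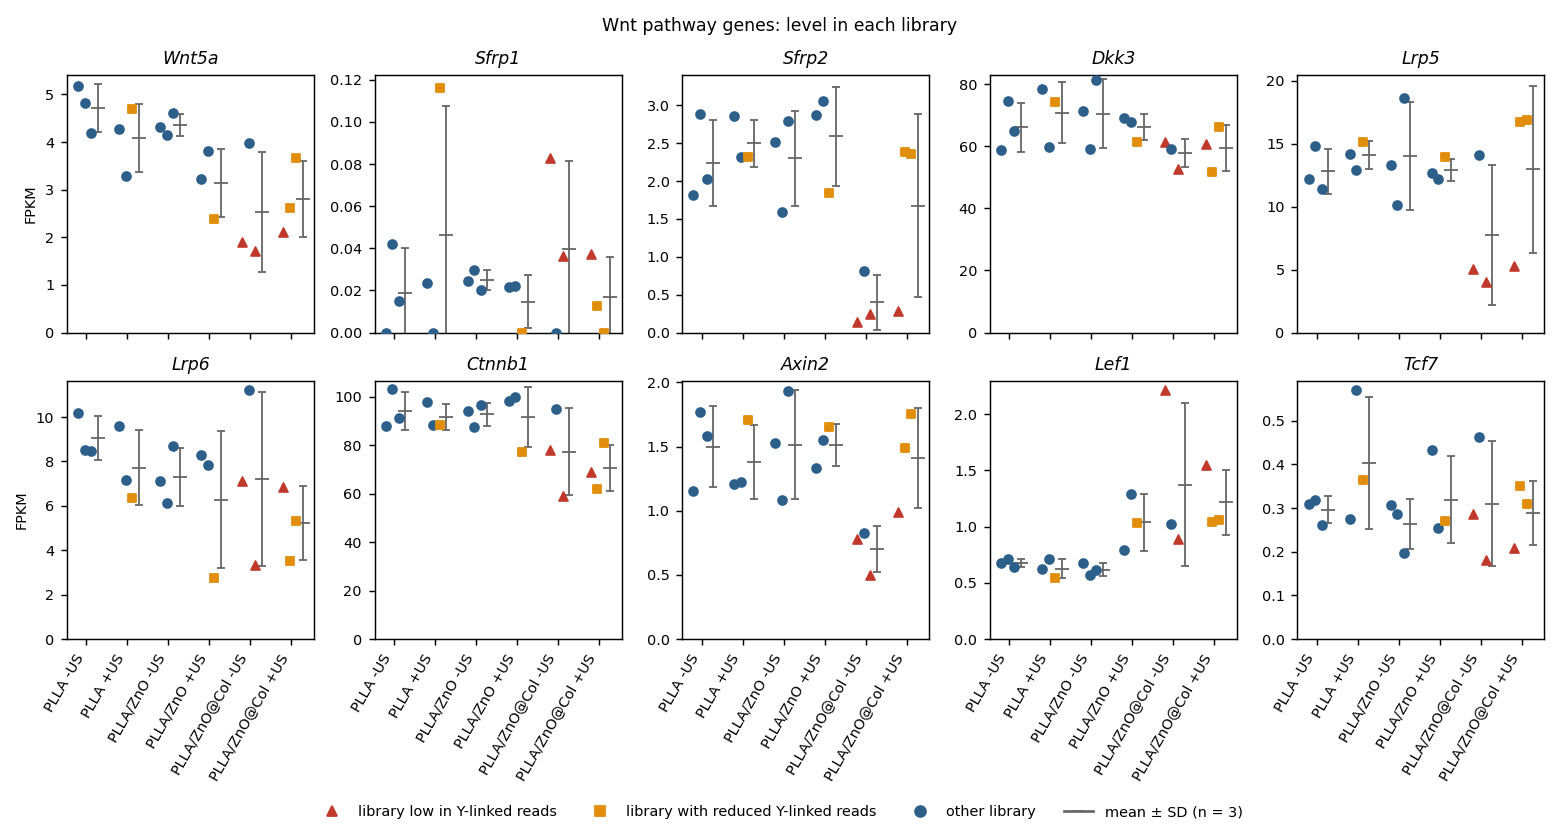
Level of each of the 10 Wnt genes in FPKM (vertical axes, each panel with its own scale from 0) in the 3 libraries of each group (horizontal axis), with the group mean and SD in grey, cut at 0 where they reach below it. Red triangles are the 3 libraries low in Y-linked reads, orange squares the 4 with reduced Y-linked reads and blue circles the other 11. Axin2 and Sfrp2 are lowest in PLLA/ZnO@Col -US (means 0.702 and 0.396 FPKM), and Lef1 is above the other groups in PLLA/ZnO +US and in both groups with collagen.

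Among the tested ligand and secreted inhibitors, Sfrp2 varied most between libraries and Dkk3 least. Wnt5a, a ligand of the beta-catenin-independent branch (chromosome 14, 28504750 to 28527448, + strand, GRCm38), averaged 4.72 ± 0.501 FPKM in PLLA -US, 4.09 ± 0.719 in PLLA +US and 4.35 ± 0.231 in PLLA/ZnO -US (SD, n = 3 in every group). It averaged 3.14 ± 0.715 FPKM in PLLA/ZnO +US, and on PLLA/ZnO@Col 2.54 ± 1.26 without ultrasound and 2.80 ± 0.799 with it, and these 3 groups overlapped. Sfrp2, a secreted Frizzled-related protein (chromosome 3, 83766321 to 83774316, + strand), was at 1.59 to 3.06 FPKM in all 12 libraries without collagen. On PLLA/ZnO@Col -US its 3 libraries were at 0.137, 0.806 and 0.246 FPKM, all below those 12, and on PLLA/ZnO@Col +US they were at 0.283, 2.38 and 2.36 FPKM. Its highest level was 22.4 times its lowest, on 18 to 434 counts. Dkk3, a divergent member of the Dickkopf family (chromosome 7, 112116017 to 112159057, - strand), had a coefficient of variation of 12.9% over the 18 libraries, below the median of 21% for the tested genes. Group means of Dkk3 ran from 57.7 ± 4.52 FPKM in PLLA/ZnO@Col -US to 70.8 ± 9.79 FPKM in PLLA +US, and all groups overlapped with at least 1 other. Sfrp1, another secreted Frizzled-related protein (chromosome 8, 23411502 to 23449632, + strand), had 0 to 45 counts per library, too few to compare groups.

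Among the co-receptors and beta-catenin, Lrp5 had its widest spread within the collagen groups. Lrp5, a co-receptor known from human disorders of bone mass (chromosome 19, 3584828 to 3686564, - strand), was at 10.1 to 18.6 FPKM in the 12 libraries without collagen. On PLLA/ZnO@Col -US it was at 5.02, 14.1 and 4.02 FPKM and on PLLA/ZnO@Col +US at 5.26, 16.7 and 16.9 FPKM. The 3 low values belong to the 3 libraries low in Y-linked reads. Lrp6, the second co-receptor (chromosome 6, 134446476 to 134566913, - strand), averaged 9.07 ± 0.996 FPKM in PLLA -US and 5.23 ± 1.67 FPKM in PLLA/ZnO@Col +US (SD, n = 3), with the 4 other groups between them and all neighbours overlapping. Ctnnb1 (chromosome 9, 120929216 to 120960507, + strand) averaged 91.6 to 93.9 FPKM in the 4 groups without collagen. It was at 77.9, 95.0 and 59.0 FPKM in PLLA/ZnO@Col -US and at 69.1, 62.0 and 80.8 FPKM in PLLA/ZnO@Col +US, and both groups overlapped PLLA/ZnO +US, whose lowest library had 77.2 FPKM.

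On the collagen membrane without ultrasound the feedback gene Axin2 had its lowest group mean and the nuclear factor Lef1 its highest. The Lef1 mean there rested on 1 library at 2.21 FPKM. Its median there, 1.02 FPKM, was below those of PLLA/ZnO +US (1.03 FPKM) and PLLA/ZnO@Col +US (1.06 FPKM). Axin2, a scaffold of the beta-catenin destruction complex and itself a target of the pathway (chromosome 11, 108920349 to 108950783, + strand), was at 1.15, 1.77 and 1.58 FPKM in PLLA -US, 1.21, 1.22 and 1.71 in PLLA +US, and 1.53, 1.08 and 1.93 in PLLA/ZnO -US. Its libraries were at 1.33, 1.55 and 1.65 FPKM in PLLA/ZnO +US, 0.778, 0.826 and 0.5 in PLLA/ZnO@Col -US, and 0.986, 1.49 and 1.75 in PLLA/ZnO@Col +US. All 3 libraries of PLLA/ZnO@Col -US lay below the other 15, on 170 to 297 counts, while the other 5 groups overlapped. Lef1, a DNA-binding partner of beta-catenin (chromosome 3, 131110471 to 131224356, + strand), was at 0.675, 0.713 and 0.64 FPKM in PLLA -US, 0.624, 0.712 and 0.539 in PLLA +US, and 0.674, 0.566 and 0.613 in PLLA/ZnO -US. It was at 0.789, 1.29 and 1.03 FPKM in PLLA/ZnO +US, 2.21, 1.02 and 0.89 in PLLA/ZnO@Col -US, and 1.55, 1.04 and 1.06 in PLLA/ZnO@Col +US. The last 3 groups overlapped each other, and all 9 of their libraries lay above the 9 libraries of the first 3 groups. Lef1 reached 1 FPKM in 7 of 18 libraries, all of them in those 3 groups, and so entered the tests only through the groups where it was high. The fold changes printed for Lef1 from all 18 libraries are therefore given beside the fit without a filter. Counts of members that include Lef1 are given beside those without it. Tcf7, the second nuclear factor (chromosome 11, 52252371 to 52283331, - strand), was at 0.181 to 0.571 FPKM on 34 to 114 counts, and all 6 of its groups overlapped.

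Collagen without ultrasound, PLLA/ZnO@Col -US against PLLA/ZnO -US, asks what collagen adds to the zinc oxide membrane. Axin2 averaged 0.702 ± 0.176 against 1.51 ± 0.422 FPKM, Sfrp2 averaged 0.396 ± 0.359 against 2.30 ± 0.628 FPKM, and Wnt5a averaged 2.54 ± 1.26 against 4.35 ± 0.231 FPKM (SD, n = 3 each). Lef1 averaged 1.37 ± 0.728 against 0.618 ± 0.0540 FPKM. The groups did not overlap for any of these 4 genes: Axin2, Sfrp2 and Wnt5a were lower in every collagen library and Lef1 was higher in every one. No gene passed an adjusted p of 0.05 in edgeR's quasi-likelihood test, 0 of 11936 (0%), so no member was called, and 4 of the 8 tested members had an unadjusted p under 0.05 in that test, against 12.9% of all tested genes. The same 4 of 8 members had groups that did not overlap, against 11.4% of all tested genes. Without Lef1 both counts were 3 of 7, and in the fit without a filter Lef1 was at 1.16 (SE 0.30, edgeR adjusted p = 0.273). The log2 fold change was -1.08 for Axin2 (SE 0.27, edgeR unadjusted p = 0.00109, adjusted p = 0.116). For Sfrp2 it was -2.51 (SE 0.65, edgeR adjusted p = 0.123), for Lef1 it was 1.20 (SE 0.31, edgeR adjusted p = 0.123), and for Wnt5a it was -0.76 (SE 0.28, edgeR adjusted p = 0.258). The median log2 fold change was -0.51 over the 8 members and 0.04 over all tested genes.

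These values depended on which collagen libraries were used. Without the 3 libraries low in Y-linked reads, which leaves 1 collagen library assumed to vary like the other groups, the log2 fold change was -0.90 for Axin2 (SE 0.34, edgeR adjusted p = 0.189), -1.54 for Sfrp2 (SE 0.40, edgeR adjusted p = 0.0743) and 0.70 for Lef1 (SE 0.25, edgeR adjusted p = 0.174). Wnt5a was then at -0.15 (SE 0.26, edgeR adjusted p = 0.781), since the remaining library had 3.99 FPKM. Leaving out PLLA/ZnO@Col -US replicate 2 instead keeps only libraries low in Y-linked reads on the collagen side. Collagen and this kind of library cannot be told apart in that fit, where 1039 of the 11936 tested genes passed edgeR's adjusted threshold. Among them were 5 members, 4 of them other than Lef1. They were Wnt5a at -1.20 (adjusted p = 0.0119), Sfrp2 at -3.48 (adjusted p = 0.0128), Lef1 at 1.39 (adjusted p = 0.0197), Lrp5 at -1.57 (adjusted p = 0.0233) and Axin2 at -1.17 (adjusted p = 0.0309). DESeq2 on all libraries called 407 of the 11936 tested genes. Among them were Sfrp2 (-2.49, DESeq2 adjusted p = 0.00569) and Axin2 (-1.06, DESeq2 adjusted p = 0.00956). Lef1 was also called (1.20, DESeq2 adjusted p = 0.0116), among filtered genes that it entered only through the groups where it was high. DESeq2 was not run without that filter. Leaving out 1 of the 6 libraries at a time, Lef1 ran from 0.63 to 1.43 and Wnt5a from -1.20 to -0.54. The groups of these 4 genes did not overlap, so such fits could hardly turn a direction and do not test it.

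Ultrasound on PLLA/ZnO@Col, +US against -US, set the same low values of Axin2 and Sfrp2 against higher ones. Axin2 averaged 1.41 ± 0.388 FPKM with ultrasound and 0.702 ± 0.176 without, and every library with ultrasound lay above every library without (SD, n = 3 each). Sfrp2 averaged 1.67 ± 1.20 FPKM with ultrasound and 0.396 ± 0.359 without, and its groups overlapped because the low library with ultrasound had 0.283 FPKM. The log2 fold change was 1 for Axin2 (SE 0.27, edgeR unadjusted p = 0.00192, adjusted p = 0.525) and 2.08 for Sfrp2 (SE 0.64, edgeR unadjusted p = 0.00543, adjusted p = 0.525). Of all tested genes, 0% passed the adjusted threshold, 8.18% had an unadjusted p under 0.05 and 11% had groups that did not overlap, against 0, 2 and 1 of the 8 members. Both comparisons share PLLA/ZnO@Col -US, so a chance deviation of that group enters both with opposite sign.

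The kinds of library were unequally divided between these 2 groups, with 2 low libraries of 3 without ultrasound and 1 of 3 with it. Among the low libraries Axin2 was at 0.778 and 0.5 FPKM without ultrasound and 0.986 with it, and among the others it was at 0.826 without and at 1.49 and 1.75 with it. Sfrp2 was at 0.137 and 0.246 FPKM without and 0.283 with ultrasound among the low libraries, and at 0.806 without and at 2.38 and 2.36 with it among the others. Both genes had their higher values with ultrasound in each of these sets, with only 1 or 2 libraries on a side. Among the low libraries Sfrp2 rested on 18 and 33 counts without ultrasound and 37 with it, too few to tell these levels apart. The sets outside the low libraries are not alike, since both ultrasound libraries there had reduced Y-linked reads and mitochondrial shares under 2% and the library without ultrasound did not. Ultrasound and this kind of library cannot be told apart there. Lrp5 was at 5.02 and 4.02 without and 5.26 FPKM with ultrasound among the low libraries, and at 14.1 without and at 16.7 and 16.9 with it among the others. Without the 3 low libraries, which leaves 1 library without ultrasound, assumed to vary like the other groups, the log2 fold change was 1.01 for Axin2 (SE 0.36, edgeR adjusted p = 0.082) and 1.59 for Sfrp2 (SE 0.42, edgeR adjusted p = 0.0597). Without the 4 libraries with reduced Y-linked reads, which leaves 1 library with ultrasound, itself low in Y-linked reads and again assumed to vary like the other groups, the value was 0.51 for Axin2 (edgeR unadjusted p = 0.175) and -0.43 for Sfrp2 (edgeR unadjusted p = 0.557), which turns the direction of Sfrp2. Without the low library with ultrasound, PLLA/ZnO@Col +US replicate 1, Sfrp2 passed the adjusted threshold (2.60, edgeR adjusted p = 0.0458).

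Ultrasound on PLLA/ZnO, +US against -US, left no member past the adjusted threshold. Lef1 averaged 1.04 ± 0.249 FPKM with ultrasound and 0.618 ± 0.0540 without, and all 3 libraries with ultrasound were higher (SD, n = 3 each). Wnt5a averaged 3.14 ± 0.715 against 4.35 ± 0.231 FPKM, and all 3 were lower. The log2 fold change was 0.74 for Lef1 (SE 0.31, edgeR unadjusted p = 0.0303, adjusted p = 0.937) and -0.47 for Wnt5a (SE 0.28, edgeR unadjusted p = 0.111, adjusted p = 0.937). Of all tested genes 0% passed the adjusted threshold, 3.24% had an unadjusted p under 0.05 and 11.4% had groups that did not overlap, against 0, 1 and 2 of the 8 members and 0, 0 and 1 of the 7 without Lef1. In the fit without a filter Lef1 was at 0.80 (SE 0.29, edgeR adjusted p = 0.977). Leaving out 1 library at a time, Lef1 ran from 0.55 to 0.90, with an edgeR unadjusted p of 0.126 without PLLA/ZnO +US replicate 2. Its groups did not overlap, so these fits could hardly turn its direction and do not test it. By limma on log2(FPKM + 1) it was at 0.32 (limma unadjusted p = 0.0755).

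Zinc oxide with ultrasound, PLLA/ZnO +US against PLLA +US, set the same PLLA/ZnO +US libraries against another reference group. Lef1 averaged 1.04 ± 0.249 against 0.625 ± 0.0866 FPKM, with a log2 fold change of 0.77 (SE 0.31, edgeR unadjusted p = 0.0258, adjusted p = 1) and no overlap. In the fit without a filter it was at 0.79 (SE 0.29, edgeR adjusted p = 1). It was the only member with an unadjusted p under 0.05 or without overlap, where 1.27% and 7.93% of all tested genes met these and 0% passed the adjusted threshold. The comparison shares PLLA/ZnO +US with the one before and is not a separate observation of it. Without PLLA/ZnO +US replicate 2, the library of that group with the most Lef1, the log2 fold change was 0.58 in this comparison (edgeR unadjusted p = 0.111) and 0.55 for ultrasound on PLLA/ZnO (edgeR unadjusted p = 0.126).

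In the fit of all 18 libraries, in the 3 remaining pairs of groups no member had an unadjusted p under 0.05 or groups that did not overlap. For ultrasound on PLLA the members' log2 fold changes ran from -0.26 to 0.13, where 0.436% of all tested genes had an unadjusted p under 0.05, 10.8% had groups without overlap and 0% passed the adjusted threshold. For zinc oxide without ultrasound they ran from -0.30 to 0.14, against 1.19%, 17.6% and 0% of all genes. For collagen with ultrasound they ran from -0.60 to 0.27, against 9.43%, 15.3% and 0%. Ctnnb1 was at -0.34 there (SE 0.17, edgeR unadjusted p = 0.0559, adjusted p = 0.539). It was at -0.37 by DESeq2 (DESeq2 unadjusted p = 0.0304, adjusted p = 0.407) and at -0.36 without the 3 low libraries (edgeR unadjusted p = 0.0267, adjusted p = 0.346). Without those 3 libraries the other tested members ran from -0.50 to 0.37. Without the 4 libraries with reduced Y-linked reads, which leaves 1 collagen library that is low in Y-linked reads, Sfrp2 was at -3.30 (edgeR unadjusted p = 0.00199, adjusted p = 0.268). With ultrasound, Axin2 averaged 1.41 ± 0.388 FPKM on PLLA/ZnO@Col and 1.51 ± 0.159 on PLLA/ZnO, and Lef1 averaged 1.21 ± 0.290 and 1.04 ± 0.249 FPKM (SD, n = 3 each). With 3 libraries in each group, a p above the threshold does not show that levels were alike.

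Whether the effect of ultrasound differed between membranes was tested as a difference of differences. Between PLLA/ZnO@Col and PLLA/ZnO the ultrasound effect differed by 1.01 for Axin2 (SE 0.37, edgeR unadjusted p = 0.0165), 1.91 for Sfrp2 (SE 0.87, edgeR unadjusted p = 0.045) and -0.93 for Lef1 (SE 0.44, edgeR unadjusted p = 0.0499), all on the log2 scale. Each had an edgeR adjusted p of 0.999. These were 3 of 8 members, and 2 of 7 without Lef1, against 2.2% of all tested genes at an unadjusted p under 0.05 and 0% at the adjusted threshold. The Lef1 difference was -0.97 in the fit without a filter (edgeR unadjusted p = 0.0325). Without the 3 low libraries the difference was 1 for Axin2, 1.41 for Sfrp2 and -0.68 for Lef1 (edgeR unadjusted p = 0.0346, 0.012 and 0.0614). Without the 4 libraries with reduced Y-linked reads it was 0.58 for Axin2 (edgeR unadjusted p = 0.226), -0.57 for Lef1 (edgeR unadjusted p = 0.344) and -0.80 for Sfrp2 (edgeR unadjusted p = 0.384), which turns the direction of Sfrp2. Both fits leave 1 library in a group on PLLA/ZnO@Col. Without PLLA/ZnO@Col -US replicate 1 alone, the library with the most Lef1, the Lef1 difference was -0.37 (edgeR unadjusted p = 0.274), and without replicate 2 that of Sfrp2 was 2.86 (edgeR unadjusted p = 0.00418). Between PLLA/ZnO and PLLA no member differed at an unadjusted p under 0.05, with values from -0.22 to 0.89, where 0.385% of all tested genes did and 0% passed the adjusted threshold. In the fit without a filter Lef1 was at 0.92 (SE 0.42, edgeR unadjusted p = 0.0419, adjusted p = 1).

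**Figure D2:**
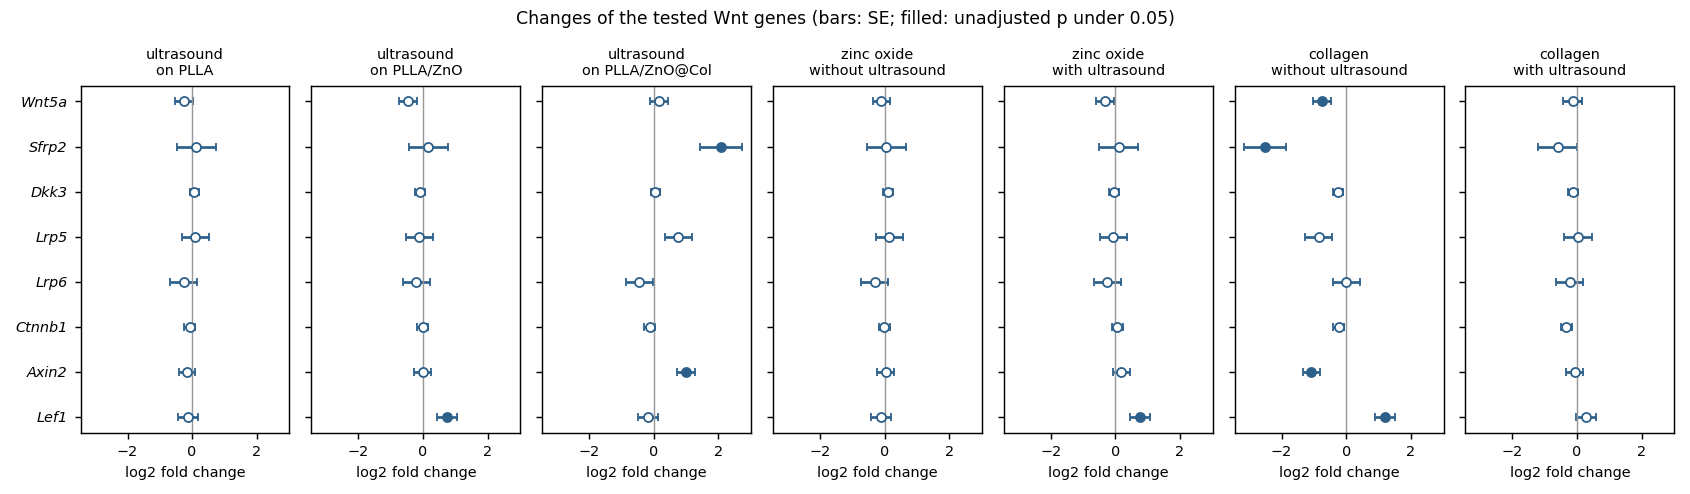
Log2 fold change (horizontal axis) with its standard error for the 8 tested Wnt genes in each of the 7 comparisons between pairs of groups, 3 libraries against 3. Filled points had an edgeR unadjusted p under 0.05, and no gene passed the adjusted threshold. Axin2 and Sfrp2 are at -1.08 and -2.51 for collagen without ultrasound and at 1 and 2.08 for ultrasound on PLLA/ZnO@Col, which share PLLA/ZnO@Col -US.

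Several of the 10 genes were low in the 3 libraries low in Y-linked reads, whichever ultrasound group these belonged to. This is a description of libraries set apart after their values were known, not a comparison of the study's groups. Wnt5a was at 1.72 to 2.11 FPKM in them and 2.39 to 5.17 FPKM in the other 15, Sfrp2 at 0.137 to 0.283 and 0.806 to 3.06 FPKM, and Lrp5 at 4.02 to 5.26 and 10.1 to 18.6 FPKM. These 3 of 8 tested members did not overlap, against 7.65% of all tested genes. Axin2 overlapped, at 0.5 to 0.986 FPKM against 0.826 to 1.93 FPKM, as did Lef1 (0.89 to 2.21 against 0.539 to 1.29 FPKM) and Dkk3 (52.7 to 61.3 against 51.6 to 81.2 FPKM). Of 54 other tested Wnt genes, 9 did not overlap. Lower in the 3 libraries were the ligand Wnt10a (6.44 to 10.1 against 10.9 to 18.2 FPKM), the Wnt-inactivating enzyme Notum (0.15 to 0.452 against 0.754 to 2.09 FPKM) and the receptor Fzd1 (12.9 to 16.3 against 24.1 to 34.1 FPKM). The receptor Fzd8, the kinase Csnk1e, the corepressor Tle2 and the planar polarity gene Prickle1 were also lower, while the ligand carrier Wls (15.8 to 16.7 against 8.11 to 15.7 FPKM) and the corepressor Tle1 were higher.

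Lrp6 and Ctnnb1 had their lowest values in libraries with a low mitochondrial share of counts. Lrp6 was at 2.74 to 6.36 FPKM in the 5 libraries with a share under 2% and at 6.11 to 11.2 FPKM in the other 13. Ctnnb1 was at 59.0 to 88.5 FPKM in those 5 and at 69.1 to 103 FPKM in the other 13, and these ranges overlap. Ctnnb1 was also at 59.0 to 77.9 FPKM in the 3 libraries low in Y-linked reads and at 87.4 to 103 FPKM in the 11 libraries with neither low nor reduced Y-linked reads. All 5 libraries are from groups on PLLA/ZnO@Col or with ultrasound, and the part of this share in the levels was not tested.

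**Figure D3:**
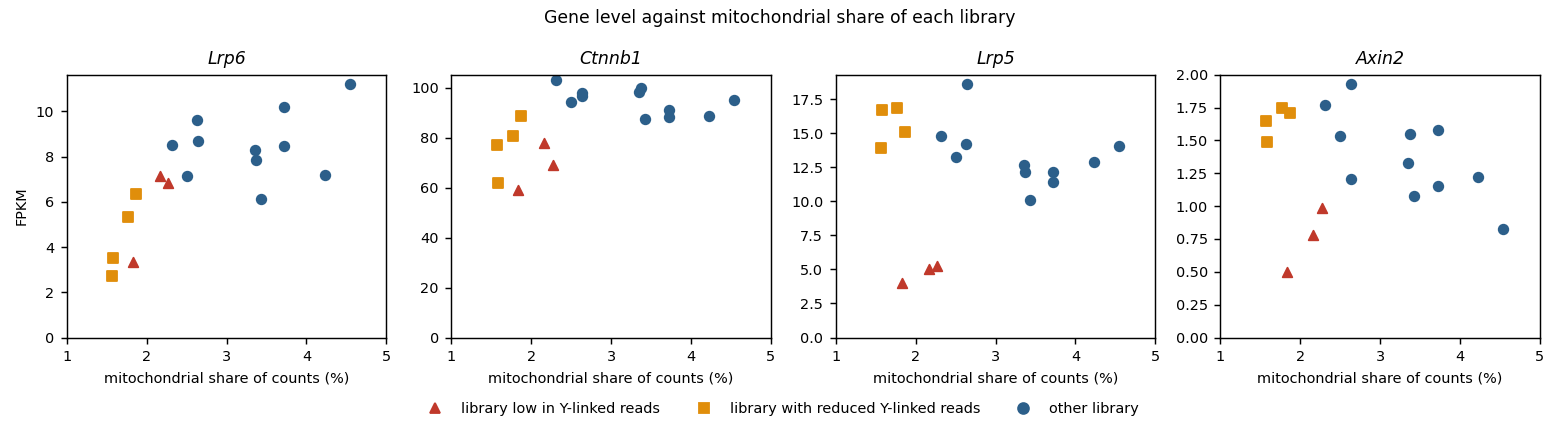
Level in FPKM (vertical axes) of Lrp6, Ctnnb1, Lrp5 and Axin2 against the percentage of a library's counts from the mitochondrial genome (horizontal axes), 1 point per library. Lrp6 is at 2.74 to 6.36 FPKM in the 5 libraries with a share under 2%, while Lrp5 is at 4.02 to 5.26 FPKM in the 3 libraries low in Y-linked reads (red triangles) and at 10.1 FPKM or more in all others.

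The other genes of the pathway came from a list of 108 genes by role, of which 104 were in the table and 62, members included, passed the filter. Of the ligands, 5 of 19 passed, led by Wnt10a with a mean of 13.6 FPKM and Wnt10b with 7.14 FPKM over the 18 libraries, while Wnt1, Wnt3 and Wnt7b were at most 0.113 FPKM. Of the genes for ligand release and potentiation, 5 of 9 passed, led by Wls (12.7 FPKM), which carries Wnt proteins to the cell surface, and Rspo2 (2.9 FPKM), a secreted potentiator. Of the secreted inhibitors, 3 of 13 passed: Dkk3, Sfrp2 and Notum (mean 1.20 FPKM). The inhibitors Dkk1 (at most 0.0161 FPKM), Sost (at most 0.0228 FPKM) and Sfrp4 (at most 0.0133 FPKM) were near 0 in every library. Of the receptors, 10 of 17 passed, led by the atypical receptor Ryk (31.8 FPKM) and Fzd1 (27.0 FPKM). All 15 cytoplasmic genes passed, led after Ctnnb1 by the kinases Csnk1d (40.6 FPKM) and Gsk3a (30.5 FPKM). Of the nuclear factors, 12 of 13 passed, led by the coactivators Pygo2 (18 FPKM) and Bcl9l (16.6 FPKM), and the TCF genes Tcf7l1 (7.06 to 13.7 FPKM) and Tcf7l2 (3.42 to 6.18 FPKM) were above Lef1 and Tcf7 in every library. Of the feedback genes and targets, 9 of 19 passed, led by the cell cycle gene Ccnd1 (193 FPKM) and by Ccn5 (43.7 FPKM), while the targets Nkd1 (at most 0.141 FPKM), Sp5 (at most 0.0807 FPKM) and Lgr5 (at most 0.0363 FPKM) were near 0. Of the genes of the planar polarity and calcium branch, 9 of 13 passed, led after Ryk by Daam2 (11.6 FPKM).

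**Figure D4:**
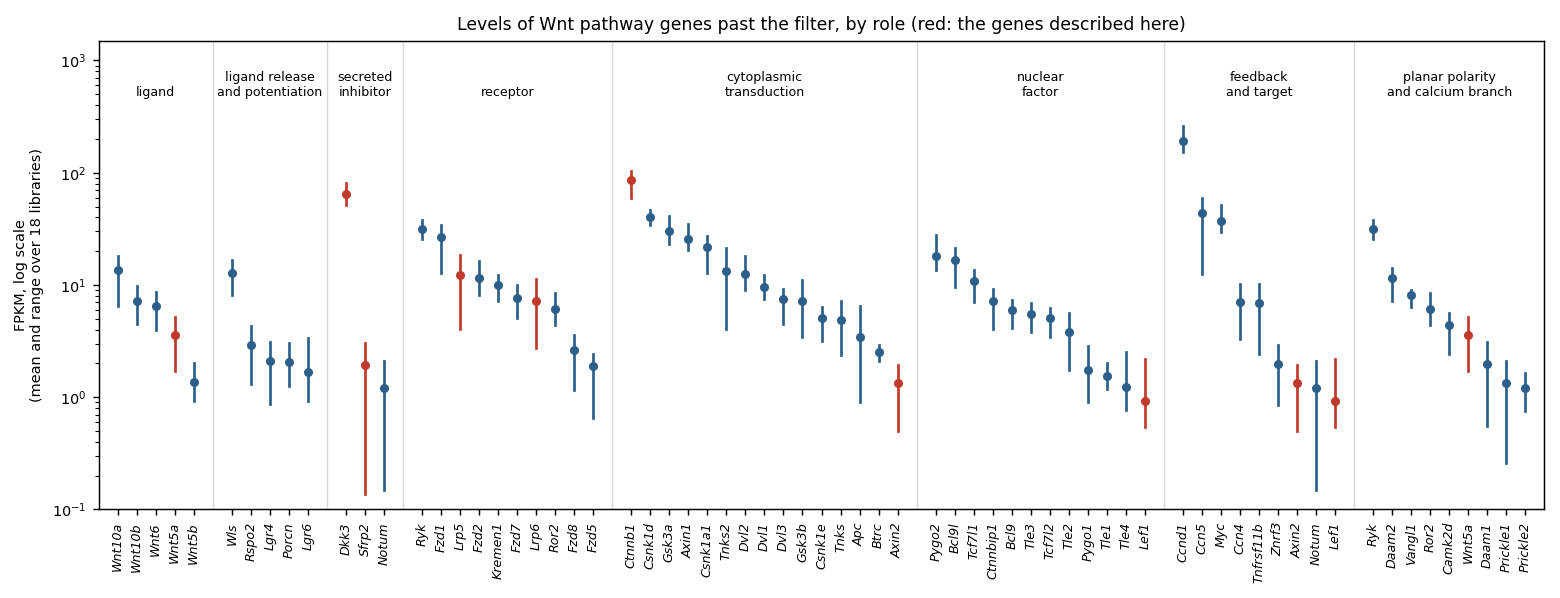
Mean level (points) and range over the 18 libraries (lines) in FPKM on a log axis for the Wnt pathway genes past the filter, grouped by role, with genes of 2 roles drawn under both. Red marks the members, of which Ctnnb1 (59.0 to 103 FPKM) and Dkk3 (51.6 to 81.2 FPKM) are highest and Axin2, Lef1 and Sfrp2 are among the lowest.

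None of the 54 other tested genes of the list passed edgeR's adjusted threshold in any of the 9 contrasts. At an unadjusted p under 0.05, collagen without ultrasound had 7 higher and 7 lower of these 54, where 12.9% of all tested genes passed in either direction. Ultrasound on PLLA/ZnO@Col had 8 higher and 1 lower (8.18% of all tested genes), and collagen with ultrasound had 8 higher and 0 lower (9.43%). Ultrasound on PLLA/ZnO had 2 higher and 1 lower (3.24%), zinc oxide with ultrasound had 1 and 1 (1.27%), and ultrasound on PLLA and zinc oxide without ultrasound had 0. The ligand Wnt10a averaged 9.14 ± 2.38 FPKM in PLLA/ZnO@Col -US, 15.2 ± 0.0858 FPKM in PLLA/ZnO -US and 14.7 ± 4.36 FPKM in PLLA/ZnO@Col +US (SD, n = 3 each). Its log2 fold change was -0.71 for collagen without ultrasound (SE 0.21, edgeR unadjusted p = 0.00469) and 0.69 for ultrasound on PLLA/ZnO@Col (SE 0.21, edgeR unadjusted p = 0.00549), the same order as Axin2 and Sfrp2 in those groups. Tle2 was at -1.02 (SE 0.26, edgeR unadjusted p = 0.00131) and the kinase Gsk3a at 0.58 (SE 0.17, edgeR unadjusted p = 0.00377) for collagen without ultrasound. Wnt10a (at most 10.1 against at least 10.9 FPKM) and Tle2 (at most 2.6 against at least 2.81 FPKM) were lower in every library low in Y-linked reads than in all others. PLLA/ZnO@Col -US held more of those libraries than PLLA/ZnO@Col +US, and PLLA/ZnO -US held none. The part of those libraries in the changes of these other genes was not tested. For collagen with ultrasound the scaffold Dvl1 averaged 11.9 ± 0.378 against 8.21 ± 0.174 FPKM, a log2 fold change of 0.56 (SE 0.13, edgeR unadjusted p = 0.000611, adjusted p = 0.339). With ultrasound on PLLA/ZnO the receptor Lgr6 averaged 2.29 ± 0.587 against 1.19 ± 0.0318 FPKM (0.94, SE 0.33, edgeR unadjusted p = 0.0112) and Ccnd1 averaged 215 ± 33.1 against 167 ± 13.3 FPKM (0.36, SE 0.14, edgeR unadjusted p = 0.0226).

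The genes whose levels over the 18 libraries were most like those of Axin2, Sfrp2 and Lef1 are given as a description, by Pearson's r of log2(FPKM + 1) over all tested genes. For Axin2 they were Cacnb1 (0.92), the integrin gene Itga11 (0.92), the retinoic acid hydroxylase gene Cyp26b1 (0.91), Cacna1g (0.90) and the procollagen protease gene Adamts2 (0.90). For Sfrp2 they were Clec11a (0.97), Thsd4 (0.97), Adamts2 (0.96), Islr (0.96) and Tmem184a (0.96). For Lef1 they included the actin crosslinker gene Actn1 (0.84), Myo1e (0.83), Smpd4 (0.82) and Sema7a (0.82). The 18 points share 6 groups and the 3 libraries low in Y-linked reads, where Sfrp2 was at most 0.283 FPKM.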

How the data were processed

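Polyadenylated RNA was sequenced by Illumina protocols in 18 libraries, per the labels. The submitters' processing notes name cutadapt 1.9, FastQC and the build GRCm38. An aligner, a counter and the use of strand are not given in the sources used. Raw counts and FPKM per gene and library come from 1 table that the authors deposited, per the file headers. Gene coordinates are those of that table.

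Genes at 1 FPKM or more in at least 3 libraries were tested, 11936 in all. Counts were normalized by TMM, and 1 fit over all 18 libraries with a mean per group (12 residual degrees of freedom, common biological coefficient of variation 0.28) was tested with the quasi-likelihood F-test of edgeR 4.0.16 in R 4.3.3, two-sided, with Benjamini-Hochberg adjustment over all tested genes within a contrast and a threshold of 0.05. The test was tested on simulated data. The genes and lists were chosen with earlier results of these data known. All 10 genes are named, with a fold change where the unadjusted p was under 0.05 or the groups did not overlap. Of other list genes, the 2 with the highest mean per role and up to 3 with the smallest unadjusted p per contrast could be named. Outside this rule, some genes near 0, the TCF genes Tcf7l1 and Tcf7l2, and the genes without overlap for the libraries low in Y-linked reads were also named. For Axin2, Sfrp2 and Lef1 the 5 most correlated genes were taken, of which 1 is not reported here.

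Alternatives were DESeq2 1.42.0 and its size factors, limma 3.58.1 on log2(FPKM + 1) and log2(FPKM + 0.1), other filters, fits to the compared groups alone, a replicate block, and fits without single libraries or without the sets of libraries that stood apart. No 2 libraries matched within sampling noise (lowest chi-square per degree of freedom 13.1). Same-numbered libraries deviated together only between PLLA +US and PLLA/ZnO +US (correlations of 0.561, 0.551 and 0.731 over genes), where the block changed no call.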

Additional observations from a re-analysis of the deposited data

How the results depend on the processing

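No gene was called in any of the 9 contrasts, and every result here is limited by 3 libraries per group of which some stood apart. DESeq2 called 5 genes for ultrasound on PLLA/ZnO, 3 for ultrasound on PLLA/ZnO@Col, 1 for zinc oxide without ultrasound, 2 for zinc oxide with ultrasound, 407 for collagen without ultrasound and 47 for collagen with ultrasound, and limma on log2(FPKM + 0.1) called 1 for collagen without ultrasound. Without the 3 libraries low in Y-linked reads, edgeR called 111 for ultrasound on PLLA/ZnO@Col, 166 for collagen without ultrasound and 13 for the difference between PLLA/ZnO@Col and PLLA/ZnO. Without the 4 libraries with reduced Y-linked reads it called 83 for collagen without and 1 for collagen with ultrasound, and the log2 value of Sfrp2 turned to -0.43 for ultrasound on PLLA/ZnO@Col and to -0.80 for the difference between PLLA/ZnO@Col and PLLA/ZnO. Leaving out 1 library at a time gave 0 to 1039 calls for collagen without ultrasound (the highest without PLLA/ZnO@Col -US replicate 2, and 18 without replicate 3), 0 to 38 for ultrasound on PLLA/ZnO@Col (the highest without its +US replicate 1), and 0 to 1 for ultrasound on PLLA/ZnO, zinc oxide with ultrasound and both differences of ultrasound effects (1 each without PLLA/ZnO +US replicate 2). Without PLLA/ZnO@Col -US replicate 2, the libraries left in that group were all low in Y-linked reads. The cause of these changes was not tested. With the replicate block 0 genes were called in every contrast, and the log2 value was 0.79 for Lef1 in zinc oxide with ultrasound (edgeR adjusted p = 0.999) and 2.11 for Sfrp2 in ultrasound on PLLA/ZnO@Col. Of 210 values of the 12 printed fold changes under the alternatives, 199 kept their direction and stayed short of the adjusted threshold, 9 passed it and 2 turned direction, those of Sfrp2. None of the 12 passed it in the fit of all libraries, so none could lose it. Where groups did not overlap, leaving out 1 library could hardly turn a direction, so this tally is not a measure of stability. Sfrp1 (at most 45 counts) and Tcf7 (at most 114 counts) were too low to compare groups with any precision.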
